A study of Mus musculus with 6 samples.

Results

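The matrix metalloproteinases (MMPs), the ADAM and ADAMTS proteases and the tissue inhibitors of metalloproteinases (TIMPs) were examined in cultured mouse bone marrow stromal cells. These are the adherent marrow cells that hold precursors of osteoblasts and adipocytes. Members were the genes whose symbol is Mmp, Adam or Adamts followed directly by a digit, or Timp1 to Timp4, each read by a probe set with exactly 1 symbol. The rule found 78 of 19938 genes, with 22 MMPs, 34 ADAMs, 18 ADAMTS genes and 4 TIMPs. Mmp15 and Adamts2 were not analysed here, since no probe set carried their symbol alone.

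The arrays compared 2 genotypes of C57BL/6 mice aged 6 months, wild type (WT) and knockout of the microRNA gene miR-188 (KO), with 3 biological replicates on 1 array each, called WT1 to WT3 and KO1 to KO3. All 6 cultures received a medium that drives adipocyte formation, made with 10% fetal calf serum, IBMX at 0.5 mM (it blocks phosphodiesterases), insulin at 5 µg/ml and dexamethasone, a glucocorticoid, at 1 µM. Nothing in the labels ties a replicate to a single mouse, so the p-values cover only the spread among these cultures, which may be technical. How long induction lasted and how much of the locus was deleted are not stated. The Mir188 probe set lay between 7.22 and 7.38 in WT and between 7.13 and 7.22 in KO (difference -0.10, limma adjusted p = 0.348). Whether it reads the deleted sequence is not known here, so every direction rests on the labels.

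MMPs are zinc proteases that cut collagens and other matrix proteins outside the cell. They are made as inactive precursors, and several are anchored in the cell membrane. ADAMs are membrane proteins, many of which release the outer part of growth factors, cytokine receptors and adhesion molecules, a process called shedding. ADAMTS proteases are secreted, bind the matrix and cut proteoglycans or the ends of procollagens. TIMPs block the active site of these enzymes, each with its own range of targets. In fat tissue and marrow stroma the balance of these enzymes and inhibitors remodels the pericellular matrix in which adipocytes enlarge.

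Of the labelled cell type's markers, 8 of 9 measured marrow stroma genes lay above background, with Lepr below it, and 6 of 8 adipocyte genes did, with Adipoq and Lep below it. Background was taken as 6.83, the level that 95% of 1027 olfactory receptor genes stayed under, and 13090 genes exceeded it. Levels are log2 values on an arbitrary scale, and probe sets differ in how strongly they bind, so a level is set against background and not against that of another gene. Of 8 neutrophil markers 2 lay above background, and of 10 macrophage markers Cd68 and Fcgr1 did.

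In KO, the collagenase gene Mmp13 rose and the inhibitor genes Timp1 and Timp3 fell, together with Mmp23 and Adamts1, and the gelatinase gene Mmp9 rose by a small amount. These 6 were the only members that passed the test (limma, adjusted p under 0.05), 2 higher and 4 lower in KO. The share of 6 in 78, or 7.69%, was close to that over all genes, of which 7.31% passed, 3.34% higher and 3.97% lower. All genes split into 666 higher and 791 lower as deposited, and into 862 and 639 after quantile normalization again. The median difference was 0.00092 over the 78 members and 0.0046 over all genes. In 22 members, or 28.2%, the genotypes did not overlap, against 24.9% of all genes. Over all 78 members both shares lay near those over all genes. Of the 40 members above background 15.0% passed and 47.5% did not overlap, against 10.7% and 34.3% of all genes above background. With array weights 12 members passed, against 17.1% of all genes, and with genes below background left out 9 of the 40 remaining members did, against 16.7%. With a trended and robust variance 8 passed, against 11.4%. With the replicate number as a block none did, against 0.261% of all genes in that limma fit. In the main limma fit 20.5% of the members had an unadjusted p under 0.05, against 20.7% of all genes.

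The families differed in how many of their genes reached background. Of the 22 MMPs 12 lay above it, of the 18 ADAMTS genes 15, and of the 4 TIMPs 3. The 34 ADAMs fell into 2 kinds. Of the 12 ADAMs called somatic here, 10 lay above background. All 22 ADAMs known from testis, sperm or epididymis lay below it, with mean levels of 3.00 to 6.38. Several of these genes lie in groups of near-identical copies, so that their probe sets may not be told apart.

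**Figure D1:**
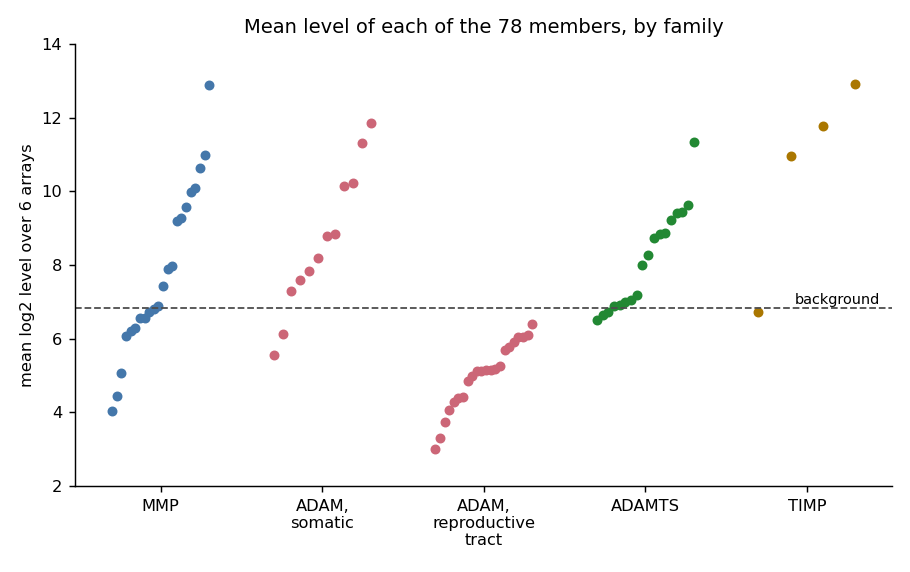
Mean log2 level over the 6 arrays (y axis) of each of the 78 members, 1 point per gene, ordered by level within its family (x axis); the dashed line is the background of 6.83. All 22 ADAM genes of the reproductive tract lie below the line, while 10 of 12 somatic ADAMs and 15 of 18 ADAMTS genes lie above it.

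Mmp13 encodes collagenase 3, which cuts fibrillar collagens and is made by cells of bone and cartilage. Its level was 9.89, 9.82 and 9.86 in the 3 WT arrays and 10.25, 10.38 and 10.30 in the 3 KO arrays. Every KO array lay above every WT array, with a gap wider than the range within either genotype. The rise was 0.46 on the log2 scale (SE 0.04, limma adjusted p = 0.00386), or 1.37-fold. The members named by rule and the listed genes that passed were refitted under 14 alternatives of scaling, array weights, variance model, gene filter, probe set choice, a replicate block and leaving out each array, and the range of adjusted p over these is given as "alternatives". Mmp3 and Timp4, below background, had 13, since the gene filter removed them. The Mmp13 call held in all 6 fits that left out 1 array (adjusted p = 0.0159 to 0.0385; alternatives 0.000360 to 0.0548). In bulk RNA, a change in the number of cells of a kind and a change in the RNA per cell cannot be told apart.

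Mmp13 is the first of 10 Mmp genes that follow one another on chromosome 9 with no other protein-coding gene between them, in the order of the RefSeq gene table. The other 9 are Mmp12, Mmp1b, Mmp3, Mmp1a, Mmp10, Mmp8, Mmp27, Mmp20 and Mmp7. They include genes for collagenases, stromelysins, metalloelastase, matrilysin and enamelysin. Mmp13 was the only 1 of the 10 above background. The 9 others had mean levels of 4.04 to 6.79, and their differences ranged from 0.0025 to 0.11, none past the test. Mmp3 (stromelysin 1), a matrix protease that also activates other MMPs, had levels of 6.46 to 6.65 in WT and 6.40 to 6.75 in KO, which overlapped.

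**Figure D2:**
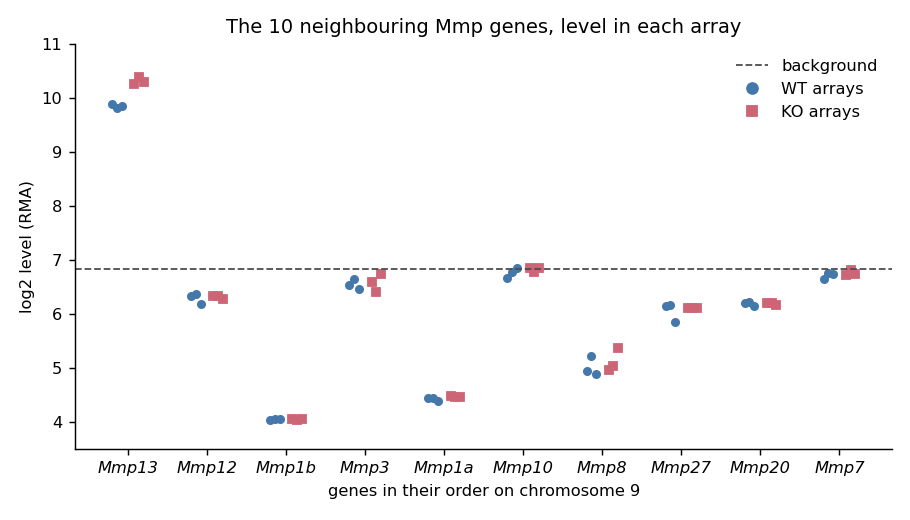
Log2 level in each WT array (circles) and each KO array (squares) of the 10 Mmp genes in their order on chromosome 9; the dashed line is the background of 6.83. Mmp13 alone has a mean above the line, and lies at 9.82 to 9.89 in WT and 10.25 to 10.38 in KO; single arrays of Mmp10 reach 6.85.

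The bases before the start of these genes are shown because a short motif recurs in them. It was searched with any middle base, which is looser than the site known to bind AP-1 transcription factors. The motif TGANTCA, which reads the same on both strands except for its middle base, was searched in the 250 bases before each start in the RefSeq promoter table (GRCm38.p6). Of 78 members 48 had an entry there, and 12 of these held the motif, or 25%, against 7.82% of 27025 genes in that table. The middle base was A in Adam20, Adam25 and Mmp20, and C or G in the rest of the 12. Of these 12 members 8 were among the 10 neighbouring Mmp genes, where Mmp8 and Mmp27 lacked the motif. The others were Adam19, Adam20, Adam25 and Adam29. The 25% thus rests mostly on 1 run of related neighbours, which are not independent cases, and is no trait of the members at large. The group of 10 was singled out after its values were seen. In Mmp13 the motif ran from 35 to 29 bases before the start, in Mmp3 from 46 to 40, in Mmp10 and Mmp7 from 63 to 57 and in Mmp1a from 73 to 67. The stretches run 5′ to 3′ and end at the last base before the start, with the motif in capitals. They cover chr9:7272264-7272513 for Mmp13, chr9:7445722-7445821 for Mmp3, chr9:7464041-7464140 for Mmp1a, chr9:7502242-7502341 for Mmp10 and chr9:7691990-7692089 for Mmp7, all on the forward strand.
Mmp13: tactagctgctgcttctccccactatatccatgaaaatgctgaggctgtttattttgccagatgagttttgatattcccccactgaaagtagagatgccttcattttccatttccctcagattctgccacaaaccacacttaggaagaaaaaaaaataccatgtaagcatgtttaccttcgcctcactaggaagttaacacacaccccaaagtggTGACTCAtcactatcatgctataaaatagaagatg
Mmp3: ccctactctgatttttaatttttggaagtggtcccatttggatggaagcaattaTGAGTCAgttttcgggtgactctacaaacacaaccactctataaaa
Mmp1a: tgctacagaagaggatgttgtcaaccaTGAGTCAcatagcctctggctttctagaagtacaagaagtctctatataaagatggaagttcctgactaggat
Mmp10: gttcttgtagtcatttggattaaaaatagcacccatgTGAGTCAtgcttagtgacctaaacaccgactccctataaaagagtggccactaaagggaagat
Mmp7: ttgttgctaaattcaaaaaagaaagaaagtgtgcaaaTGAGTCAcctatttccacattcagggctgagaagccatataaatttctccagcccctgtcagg
Of the 12 members with the motif, Mmp13 and Adam19 were above background. Mmp13 rose, and Adam19, with the motif from 131 to 125 bases before its start, differed by -0.06 (adjusted p = 0.496). A match is a description of the sequence only. The 4 members that fell, Mmp23, Timp1, Timp3 and Adamts1, had entries without the motif. Since 7.82% of all genes in that table held it, its absence does not set these 4 apart. The last 100 bases before the start of 3 of them are given for comparison, from chrX:20870066-20870165 (forward) for Timp1, chr10:86300312-86300411 (forward) for Timp3 and chr16:85803114-85803213 (reverse) for Adamts1.
Timp1: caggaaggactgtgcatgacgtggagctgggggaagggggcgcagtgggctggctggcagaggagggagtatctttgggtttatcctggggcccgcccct
Timp3: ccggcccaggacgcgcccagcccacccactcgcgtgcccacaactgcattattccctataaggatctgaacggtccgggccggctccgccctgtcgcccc
Adamts1: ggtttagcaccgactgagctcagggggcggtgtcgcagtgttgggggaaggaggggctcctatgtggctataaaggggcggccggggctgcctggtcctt
These 3 stretches hold no capitals, since no TGANTCA lay in them. Mmp9 had no entry in the table.

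The gelatinases cut denatured collagen and basement membrane collagen. Mmp9 (gelatinase B) had levels of 9.90, 9.88 and 9.90 in WT and 10.10, 10.03 and 10.04 in KO. The KO arrays lay above the WT arrays by a small gap, a rise of 0.16 (SE 0.03, limma adjusted p = 0.0383), or 1.12-fold. That call was lost in every one of the 6 fits without 1 array (adjusted p = 0.0676 to 0.142; alternatives 0.0101 to 0.168). Mmp9 is also made in quantity by osteoclasts, macrophages and neutrophils. Of 8 osteoclast markers 4 lay above background. Among these Ctsk rose by 0.16 (adjusted p = 0.0466, lost without any 1 array at 0.0801 to 0.155; alternatives 0.0119 to 0.166). The osteoclast genes Calcr, Oscar, Dcstamp and Atp6v0d2 were below background. The mean level of the osteoclast list was 7.16 to 7.22 in WT and 7.14 to 7.22 in KO, that of the macrophage list 6.56 to 6.62 and 6.56 to 6.61, and that of the neutrophil list 6.08 to 6.24 and 6.12 to 6.23. Of the macrophage genes Cd68 fell by 0.19 (adjusted p = 0.0153, lost without WT1, WT3 or KO3 at 0.0537 to 0.0715; alternatives 0.00133 to 0.116). The part of such cells in the Mmp9 result was not tested.

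Mmp2 (gelatinase A), the other gelatinase, did not pass. It had levels of 12.94, 12.94 and 12.92 in WT and 12.86, 12.78 and 12.83 in KO, which did not overlap. The difference was -0.10 (95% interval -0.18 to -0.02, limma adjusted p = 0.137), and -0.07 after quantile normalization again and -0.06 with cyclic loess. It passed under 1 of the 14 alternatives, a trended and robust variance (adjusted p = 0.0196; alternatives 0.0196 to 0.439). Mmp14 (MT1-MMP), the membrane collagenase that activates Mmp2, had levels of 10.98, 10.94 and 10.92 in WT and 11.06, 10.98 and 11.01 in KO. The lowest KO value lay just above the highest WT value, and the interval of the difference was -0.02 to 0.16 (adjusted p = 0.344). None of the 5 membrane-type MMPs passed with limma, against 7.31% of all genes. Of these 5, 1 had an unadjusted p under 0.05 (Mmp16, difference 0.14, limma adjusted p = 0.105), against 20.7% of all genes.

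Mmp23, a small membrane-bound MMP without the usual binding domain of its relatives, fell. Its level was 9.50 in each WT array and 9.19, 8.97 and 9.07 in KO. The 3 WT values were exactly equal, a tie that RMA summaries can give, so the WT spread is no measure of precision. The fall was -0.42 (SE 0.06, limma adjusted p = 0.0102), or 1.34-fold. The call was lost without WT1, WT3 or KO3 (adjusted p = 0.0525 to 0.0679; alternatives 0.00151 to 0.0679).

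The remaining MMPs above background did not pass. Mmp11 (stromelysin 3), known from remodelling stroma and from fat, differed by -0.06 (95% interval -0.16 to 0.04, limma adjusted p = 0.476). Mmp19, a basement membrane protease, had levels of 8.99 to 9.25 in WT and 9.21 to 9.31 in KO, which overlapped (difference 0.16, adjusted p = 0.267). Mmp28 (epilysin) differed by -0.06 (adjusted p = 0.390).

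**Figure D3:**
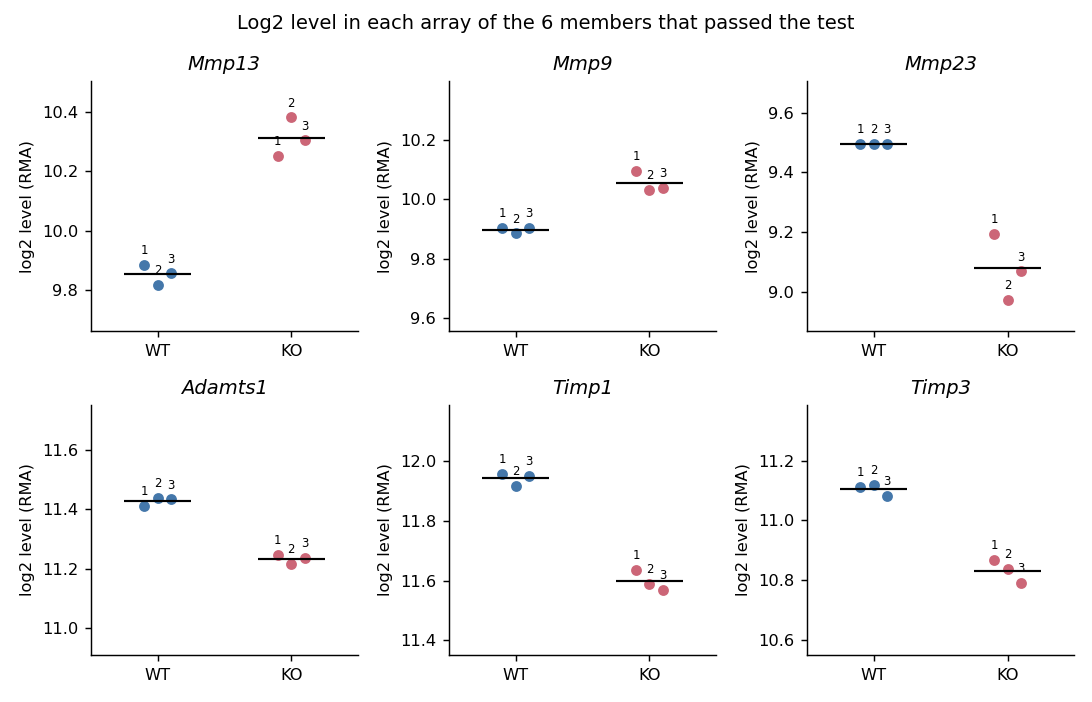
Log2 level (y axis) in each of the 3 WT and 3 KO arrays for the 6 members that passed the test; numbers beside the points are replicate numbers, lines are group means, and every panel spans the same range of log2 units. The genotypes do not overlap in any panel, and the gap is widest for Mmp13 and Mmp23.

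Among the inhibitors, 2 of 4 fell, against 3.97% of all genes. Timp1, a secreted inhibitor of most MMPs, had levels of 11.96, 11.92 and 11.95 in WT and 11.64, 11.59 and 11.57 in KO. All KO arrays lay below all WT arrays. The fall was -0.34 (SE 0.03, limma adjusted p = 0.00417), or 1.27-fold, and it passed in all 6 fits without 1 array (adjusted p = 0.0159 to 0.0410; alternatives 0.000215 to 0.0571).

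Timp3 binds the matrix and also inhibits ADAM17 and aggrecan-cleaving ADAMTS enzymes. It had levels of 11.11, 11.12 and 11.08 in WT and 10.87, 10.84 and 10.79 in KO, again without overlap. The fall was -0.27 (SE 0.03, limma adjusted p = 0.00814), or 1.21-fold. It missed the threshold without WT3 (adjusted p = 0.0537; alternatives 0.000754 to 0.0688).

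Timp2, which takes part in the activation of Mmp2 by Mmp14, overlapped between genotypes at 12.88 to 12.94 in WT and 12.87 to 12.92 in KO. Its difference was -0.02 (95% interval -0.10 to 0.06, adjusted p = 0.776, limma). The sign turned under both other scalings, to 0.01 with quantile normalization and 0.02 with cyclic loess. Markers of several cell types also changed, where 7.31% of all genes passed. Of 8 measured adipocyte markers Pparg (-1.27), Lpl (-0.42) and Fabp4 (-0.33) fell, and 5 did not pass, 3 of these with differences above 0. The median of the 8 was -0.04, while their mean level, which those 3 carry, was 7.75 to 7.80 in WT and 7.50 to 7.53 in KO. Of 9 stroma markers Nt5e (-0.28) and Kitl (-0.19) fell and Pdgfra (0.26) and Pdgfrb (0.14) rose, with a mean level of 8.91 to 8.94 in WT and in KO. Of 7 endothelial markers Kdr fell (-0.29), with a mean level of 6.61 to 6.67 in WT and 6.54 to 6.64 in KO. Of these 8 calls only Pparg kept its own in all 6 fits without 1 array. Their part in the TIMP results was not tested.

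Timp4 was below background at 6.62 to 6.80 in WT and 6.66 to 6.82 in KO.

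No ADAM passed the test with limma, and 5 of 34 had an unadjusted p under 0.05, against 20.7% of all genes. Adam10 and Adam17 are the main sheddases, which release Notch, EGF family ligands and tumour necrosis factor. Adam10 lay between 10.14 and 10.19 in WT and between 10.10 and 10.13 in KO, which did not overlap. Its difference was -0.05 (95% interval -0.12 to 0.03, limma adjusted p = 0.454), -0.016 after quantile normalization again and -0.015 with cyclic loess. Adam17 lay between 10.19 and 10.29 in WT and between 10.14 and 10.22 in KO, which overlapped, with an interval of -0.17 to 0.03 (adjusted p = 0.431). In this fit the intervals of both exclude a change of 0.2 or more in either direction, given the spread among these cultures. The lower end for Adam17 reached -0.202 with the replicate block and -0.201 without KO2.

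Adam12, which sheds growth factors and is known from fat and muscle precursors, came closest to a fall. Its level was 7.32, 7.43 and 7.47 in WT and 7.11, 7.25 and 7.25 in KO, a difference of -0.20 (SE 0.06, limma adjusted p = 0.0995). It passed with array weights (adjusted p = 0.0169) and when genes below background were left out (adjusted p = 0.0496; alternatives 0.0169 to 0.316). Adam23, which lacks a working catalytic site and acts in adhesion, had levels of 8.77, 8.61 and 8.67 in WT and 8.88, 8.83 and 8.96 in KO. Its difference was 0.20 (SE 0.05, adjusted p = 0.0764), and it passed under 5 of the 14 alternatives, both other scalings among them (adjusted p = 0.0378 and 0.0438; alternatives 0.0120 to 0.248). The widely expressed Adam9 and Adam15 differed by -0.05 and -0.06, Adam19 by -0.06 and Adam33 by 0.01, none past the test (adjusted p = 0.463 to 0.952). After quantile normalization again these differences were -0.00098, -0.0084, -0.04 and 0.02.

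Of the 18 ADAMTS genes 1 passed, against 7.31% of all genes. Adamts1, which cuts the proteoglycans aggrecan and versican, had levels of 11.41, 11.44 and 11.43 in WT and 11.25, 11.22 and 11.24 in KO. The spread within each genotype was small and the groups did not overlap. The fall was -0.19 (SE 0.03, limma adjusted p = 0.0145), or 1.14-fold. The call was lost without WT3 (adjusted p = 0.0846) or KO3 (adjusted p = 0.0525) and after quantile normalization again (adjusted p = 0.0557; alternatives 0.00104 to 0.114).

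The other aggrecan-cleaving enzymes did not pass. Adamts4 had levels of 8.73, 8.84 and 8.77 in WT and 8.95, 8.83 and 8.95 in KO, which overlapped (difference 0.13, limma adjusted p = 0.201). It passed with array weights (adjusted p = 0.0439; alternatives 0.0439 to 0.440). Adamts5, the next protein-coding gene after Adamts1 on chromosome 16, overlapped at 9.58 to 9.68 in WT and 9.57 to 9.71 in KO, with an interval of -0.12 to 0.12 for the difference. Adamts12, which cuts cartilage oligomeric matrix protein, did not overlap at 8.29 to 8.39 in WT and 8.15 to 8.24 in KO (difference -0.15, adjusted p = 0.0867). It passed with array weights (adjusted p = 0.0225) and without genes below background (adjusted p = 0.0421; alternatives 0.0225 to 0.264). Adamts9, a proteoglycanase with 6 probe sets, differed by 0.13 at the highest of them (adjusted p = 0.345) and by 0.03 on the mean of all 6 (adjusted p = 0.693).

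**Figure D4:**
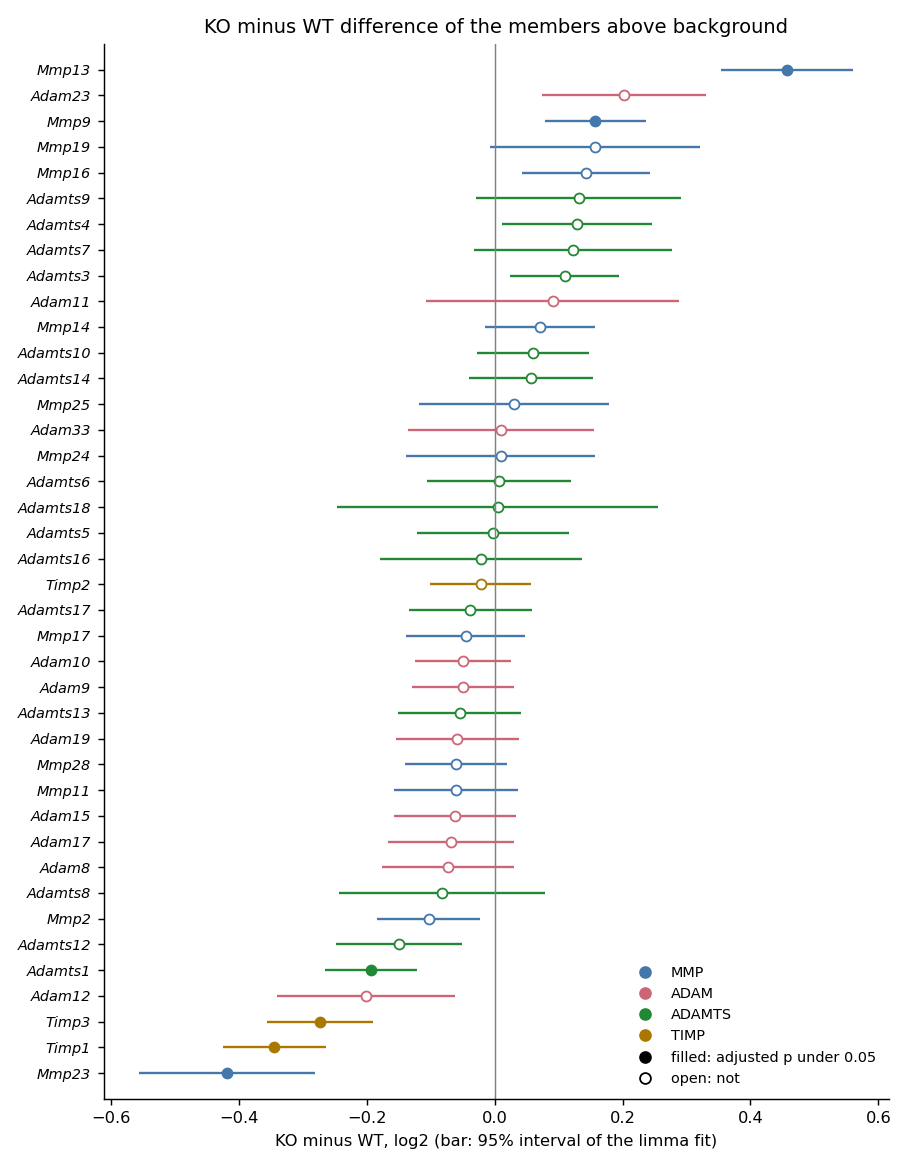
KO minus WT difference on the log2 scale (x axis) of the 40 members above background, ordered by size; points are estimates, bars are 95% intervals of the limma fit, filled points passed the test and colours mark the families. Mmp13 stands at 0.46 on one side, and Mmp23, Timp1 and Timp3 at -0.42, -0.34 and -0.27 on the other.

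Adamts3, which removes the amino-terminal propeptide of procollagens and also acts on a vascular growth factor, was read by 16 probe sets. It passed only on their mean. The probe set with the highest mean had levels of 9.13, 9.15 and 9.22 in WT and 9.28, 9.26 and 9.28 in KO, a difference of 0.11 (SE 0.04, limma adjusted p = 0.134). The difference was above 0 at all 16 probe sets, from 0.03 to 0.38 with a median of 0.22. At 12 of the 16 the KO arrays lay above the WT arrays without overlap, as they did at 9.03% of all probe sets. No probe set passed alone when all probe sets were tested (lowest adjusted p = 0.0617), though 11 had an unadjusted p under 0.05. The mean of the 16 passed in a fit over genes at a rise of 0.22 (adjusted p = 0.0429; alternatives 0.0429 to 0.314). The 16 probe sets read parts of 1 gene in the same 6 arrays and are not replicates. Adamts17, read by 5 probe sets, had differences of -0.06 to 0.05 with overlap at every one.

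**Figure D5:**
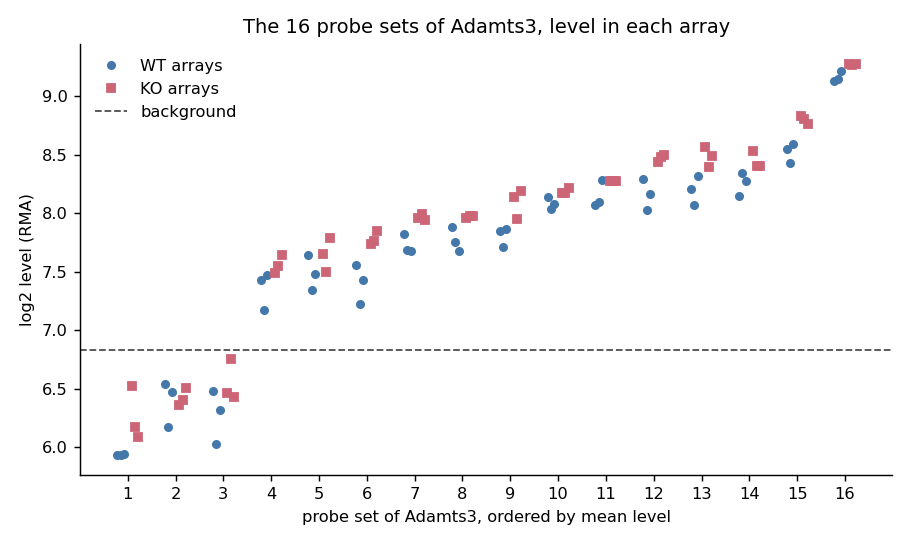
Log2 level in each WT array (circles) and each KO array (squares) at the 16 probe sets of Adamts3, ordered by mean level on the x axis; the dashed line is the background of 6.83. The KO arrays lie above all WT arrays at 12 of the 16, and 3 of the 16 probe sets lie below background.

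Genes that act with these enzymes were counted from lists of partners and substrates. Over all genes 3.34% passed as higher and 3.97% as lower in KO, and among genes above background 10.7% passed in either direction. An unadjusted p under 0.05 in limma was reached by 20.7% of all genes. Of 6 measured genes of the plasminogen system, whose protease plasmin activates several MMPs, 1 fell, none rose and the median was -0.06. Plau, the urokinase activator, fell by 0.24 (limma adjusted p = 0.0348) and passed under 7 of the 14 alternatives (0.00524 to 0.148). Of the 6 fits without 1 array, only that without WT2 kept the call (otherwise 0.0804 to 0.148). None of 5 proprotein convertases and related enzymes, which cut the precursors, passed with limma (2 at an unadjusted p under 0.05, median -0.05). Of 10 further metzincins and procollagen processing genes 1 fell and none rose, with a median of -0.0038. This was Pcolce, an enhancer of procollagen cleavage, at -0.14 (adjusted p = 0.0444), lost without any 1 array (0.0843 to 0.135; alternatives 0.00179 to 0.203). None of 7 ADAMTS-like genes passed with limma (1 at an unadjusted p under 0.05, median -0.03).

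Of 9 genes for partners of ADAM10 and ADAM17, 1 rose and 1 fell, against 3.34% and 3.97% of all genes. The median of the 9 was 0.01. Frmd8, which keeps the ADAM17 complex at the cell surface, had a tie among its WT values, so their SD is no measure of precision. It rose from 9.21 ± 0.01 to 9.43 ± 0.02 (SD, n = 3), by 0.22 (limma adjusted p = 0.0102). It missed the threshold without WT3 (adjusted p = 0.0651; alternatives 0.00236 to 0.0909). Tspan17, a tetraspanin partner of ADAM10, fell by 0.17 (adjusted p = 0.0268), lost without any 1 array (0.0586 to 0.105; alternatives 0.00521 to 0.147). The iRhom gene Rhbdf2 and the tetraspanin gene Tspan14 did not pass.

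Of 10 other inhibitors and uptake receptors, 2 fell and none rose, against 3.97% and 3.34% of all genes. The median of the 10 was -0.01. Thbs2 and Thbs1, thrombospondins that bind MMPs and direct their uptake, fell by 0.20 (limma adjusted p = 0.0114) and 0.16 (adjusted p = 0.0247). Thbs2 had 3 equal WT values. It missed the threshold without WT3 (adjusted p = 0.0705; alternatives 0.000248 to 0.1003), and Thbs1 without any 1 array (0.0542 to 0.115; alternatives 0.000599 to 0.159). Reck, a membrane-anchored inhibitor of MMPs, differed by 0.01 (adjusted p = 0.910).

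Of 20 measured genes for proteins shed by ADAMs 3 rose and 1 fell, against 3.34% and 3.97% of all genes. The median of the 20 was 0.05, and 17 of them lay above background. Il6ra, the interleukin 6 receptor, rose by 0.35 (limma adjusted p = 0.0101), a call lost without WT1 or WT3 (0.0529 to 0.0673; alternatives 0.00209 to 0.0673). The tumour necrosis factor receptor genes Tnfrsf1b and Tnfrsf1a both rose by 0.20 (adjusted p = 0.0195 and 0.0196). With 1 array left out, Tnfrsf1b passed only when it was KO3 (otherwise 0.0513 to 0.103; alternatives 0.00319 to 0.103). Tnfrsf1a passed when it was KO1 or KO3 (otherwise 0.0539 to 0.0981; alternatives 0.00307 to 0.113). Cd44, the hyaluronan receptor, fell by 0.24 (adjusted p = 0.0159), a call lost without WT1, WT3, KO2 or KO3 (0.0569 to 0.0910; alternatives 0.00241 to 0.0910).

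Of 10 genes for matrix substrates of ADAMTS enzymes 3 fell and none rose, against 3.97% and 3.34% of all genes. The median of the 10 was -0.0021. The 3 were the fibrillar collagen genes Col3a1, Col1a2 and Col1a1, of which Col3a1 fell by 0.35 (limma adjusted p = 0.00439) and Col1a2 by 0.30 (adjusted p = 0.00532), each with 3 equal WT values. Both passed in all 6 fits without 1 array (Col3a1 0.0199 to 0.0416; alternatives 0.000576 to 0.0577, and Col1a2 0.0190 to 0.0473; alternatives 0.000237 to 0.0609). Col1a1 missed the threshold without WT1, WT3 or KO3 (0.0562 to 0.0752; alternatives 0.00123 to 0.0823). Vcan, which encodes the proteoglycan versican cut by Adamts1, Adamts4 and Adamts5, differed by 0.13 (adjusted p = 0.107).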

How the data were processed

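Gene expression was measured in 3 WT and 3 KO cultures on 1 single-colour Affymetrix array each, with 6 µg of RNA as input. The deposited table holds log2 values, for which the submitters' processing notes list RMA, Partek and Expression Console without versions. Hybridisation batches are not stated. RMA sets arrays to a common scale, so changes are relative to other genes, and 3 members had 3 tied values in a genotype. Array medians lay between 7.19 and 7.23. Arrays give no read depth, and their number limits the precision.

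Of 35556 probe sets, 21789 had 1 symbol in the platform annotation, 1621 several and 12146 none. Symbols were updated through the GRCm38.p6 gene table, and 19938 genes remained, each read where several probe sets existed at the one of highest mean level. KO was compared with WT by limma 3.58.1 in R 4.3.3 (lmFit, eBayes, two-sided, no covariates), with Benjamini-Hochberg adjustment over all 19938 genes and calls at an adjusted p under 0.05. The script was tested on simulated data. Named members were those that passed, those above background with an unadjusted p under 0.05, the TIMPs and 21 members listed by name, of which Adamts2 could not be read; other genes and members named as neighbours, in the descriptions of groups or for their number of probe sets were added after their values were seen. The members, lists and alternatives were chosen with earlier results of these data known. The 14 alternatives covered scaling, array weights, the variance model, dim genes, the choice of probe set, the replicate number as a block and leaving out each array.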

Additional observations from a re-analysis of the deposited data

How the results depend on the processing

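Over all genes, 1457 passed the test, 3418 with array weights, 2275 with a trended and robust variance, 2192 among genes above background alone, 654 when adjusted over all probe sets and 189 to 932 when 1 array was left out (leaving out WT replicates 1, 2 and 3 gave 495, 932 and 189, and KO replicates 1, 2 and 3 gave 824, 828 and 612). Of the members, 2 were higher and 4 lower in KO. The number higher was 6 with array weights, a setting that leans on WT replicate 3 (weight 7.41 against 0.524 to 1.19), and 1 when adjusted over all probe sets or without any 1 array. The number lower was 1 to 4 without 1 array, with 1 left without WT replicate 3 and 2 without KO replicate 3. With genes below background left out, 9 of 40 members passed, against 16.7% of those genes. The direction of the 6 called members was kept under all 14 alternatives. Of the 21 named members that did not pass, 5 changed sign and 6 passed under some alternative.

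Replicate numbers are shared between the genotypes, but samples of the same number did not deviate together (correlations -0.299, -0.262 and -0.0151 across genes). With the replicate block, 52 genes and 0 members passed in limma, none higher and none lower (the 6 called members at adjusted p = 0.0548 to 0.168). With 3 arrays a group the precision limits small changes: a difference of -0.10 (Mmp2) did not pass.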
